A study of Mus musculus with 6 samples.

Results

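The genes described here encode the Trem2 receptor and its signalling route, measured in BV2 cells, a line of immortalised microglia from mouse. They were the 9 rows of the count table whose Ensembl identifier carries the symbol Trem2, Trem1, Trem3, Cd33, Tyrobp, Hcst, Syk, Plcg2 or Inpp5d, of 55401 genes listed. Messenger RNA of whole cultures was captured by its poly(A) tail and sequenced in 3 libraries of cells given lipopolysaccharide (LPS), a molecule of the bacterial envelope sensed by the receptor TLR4, and in 3 libraries of cells given vehicle. The labels named no dose, time or genotype, and all 6 libraries came from the same line. The stated aim was to find key regulators of inflammatory microglia. Whether the libraries within a group were grown as separate cultures is not given in the labels, and every p-value below therefore reflects the spread among these libraries alone.

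The receptors Trem1, Trem2 and Trem3 have short tails and cannot signal alone. They pair in the membrane with the adaptor protein DAP12, encoded by Tyrobp, whose tail carries an immunoreceptor tyrosine-based activation motif (ITAM). Once its tyrosines are phosphorylated by Src family kinases, the motif recruits the kinase Syk, which passes the signal on to phospholipase C gamma 2 (Plcg2) and other effectors. The lipid phosphatase SHIP1 (Inpp5d) and, in human cells, the sialic acid receptor CD33 act against this route. In the brain Trem2 is known as a microglial sensor of lipids and lipoproteins.

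The difference between the adaptors can be read in their coding sequence, and the stretches that hold their signalling motifs are shown for that reason. Both were read 5′ to 3′ from GENCODE M21 transcripts (GRCm38, chromosome 7), with the codons of the motif tyrosines in capitals. The Tyrobp stretch spans bases 325 to 369 of the 564-base transcript and encodes the ITAM, with 2 tyrosines. The Hcst stretch spans bases 322 to 333 of the 442-base transcript and encodes a motif with 1 tyrosine, known to bind the regulatory subunit of phosphatidylinositol 3-kinase.
Tyrobp ITAM: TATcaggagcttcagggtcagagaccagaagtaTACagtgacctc
Hcst tyrosine motif: TACatcaacatg

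The libraries totalled 45969690 to 59023474 estimated counts, and 18984 to 20615 genes were above 0. The lowest value of any member was 127 counts (Hcst in LPS 3). All 8 myeloid marker genes used as a check of the cell type (Csf1r, Itgam, Aif1, Cd68, Adgre1, Spi1, Ptprc and Fcer1g) were above 0 in every library. Their summed level was 1687 to 2199 CPM (each library's counts brought to 1 size with TMM factors) in LPS libraries and 1971 to 2275 CPM in Vehicle libraries. Cd68 made up much of this sum, with means of 918 CPM in LPS and 959 CPM in Vehicle. Aif1 added little, with 2.01 and 3.20 CPM. Single markers moved in both directions within this sum. Csf1r, the receptor for the survival factor CSF1, fell with a log2 fold change of -1.41 ± 0.08 (87.0 CPM in LPS and 232 CPM in Vehicle on average), and Adgre1, the F4/80 gene, rose with 0.72 ± 0.12. Their part in the results was not tested. Itgam was lower in LPS 1, with 2144 counts, than in LPS 2 and 3, with 9836 and 12119 counts, and the Vehicle libraries, with 7393 to 13407 counts. The lymphocyte markers summed to at most 0.0821 CPM in LPS libraries and 0.169 CPM in Vehicle libraries, and Cd3e, Ms4a1 and Ncr1 were at 0 throughout. The summed level of 5 neuronal markers was 0.24 CPM in LPS 1 and 6.32 and 11.1 CPM in the other LPS libraries, against at least 3.82 CPM in each Vehicle library. The summed level of the astrocyte markers was 1.70 CPM in LPS 1, and that of the oligodendrocyte markers 1.18 CPM, both the lowest of the 6 libraries. The part of these gaps in the results was not tested, and values without LPS 1 are given for Trem2, Trem1, Tyrobp and Syk.

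All 9 members passed the filter on low counts and were tested. Of these, 4 passed the quasi-likelihood test of edgeR (Benjamini-Hochberg adjusted p under 0.05), where 23.6% of all 16371 tested genes did. Such genes are referred to as called. Trem2 and its adaptor gene Tyrobp fell with LPS, Syk and Trem1 rose, and Trem3, Cd33, Hcst, Plcg2 and Inpp5d did not pass the test. In CPM, the libraries of the groups did not overlap in 6 members, against 40.8% of tested genes. All LPS libraries were above all Vehicle libraries in 3 of them (20.8% of tested genes) and below in 3 (20% of tested genes). By role, 1 of 4 receptors rose and 1 fell, 1 of 2 adaptors fell, and 1 of 3 enzymes rose. Over all tested genes 12.7% were called higher and 10.9% lower, and the median log2 fold change was -0.02. Scaling by total counts alone made 42.2% of all calls higher, against 53.9% with TMM.

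**Figure D1:**
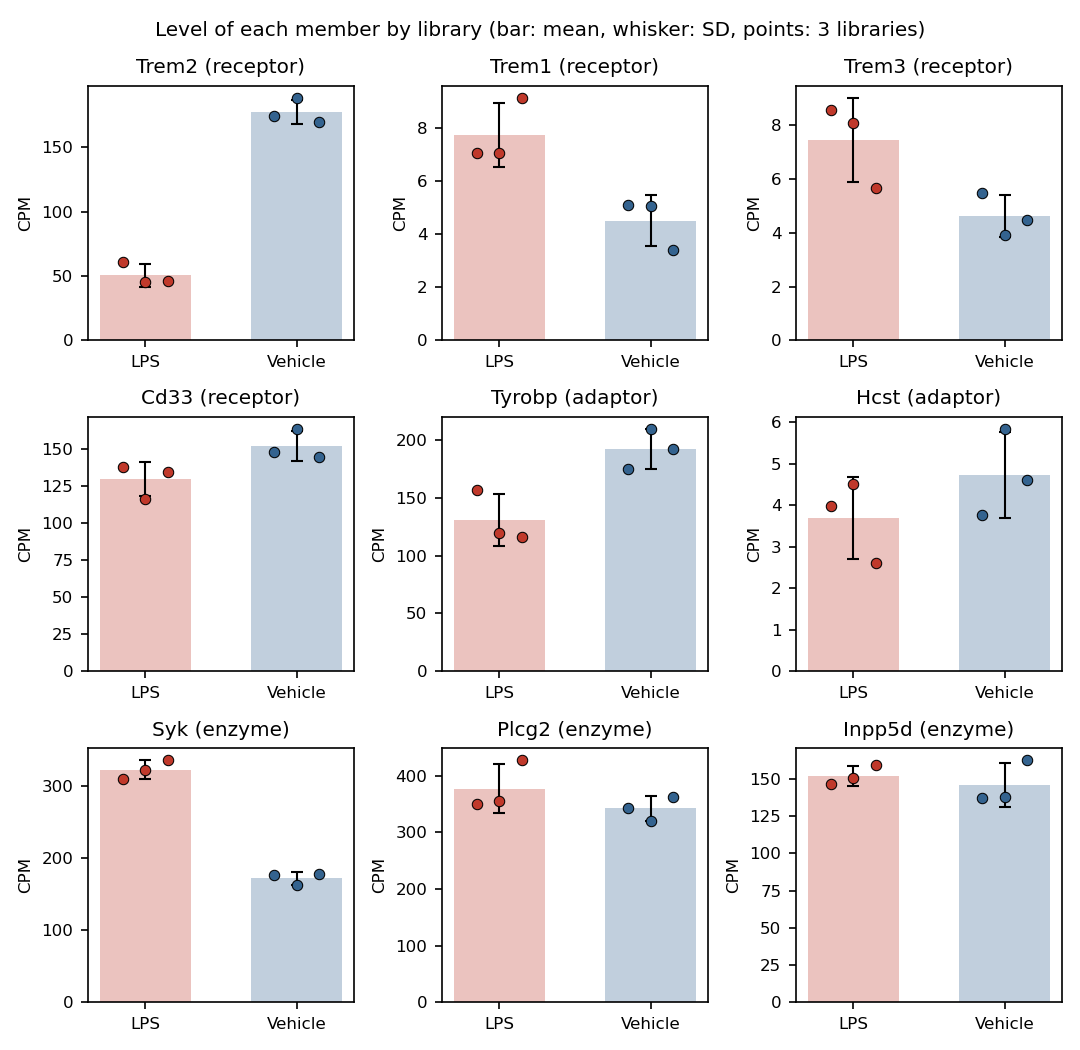
Level of each of the 9 genes in CPM (vertical axis, from 0) in LPS and Vehicle libraries, with points for the 3 libraries of a group, bars for the mean and whiskers for the SD. The Trem2 points lie between 45.2 and 60.9 CPM in LPS and between 169.7 and 188 CPM in Vehicle, while the Plcg2 points of both groups overlap.

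Trem2 (ENSMUSG00000023992) changed most among the 9 members. Its level was 60.9, 45.2 and 46.0 CPM in LPS 1, 2 and 3, against 175, 188 and 169.7 CPM in Vehicle 1, 2 and 3. Every LPS library was far below every Vehicle library, and LPS 1 was the highest of its group. The fall amounted to a log2 fold change of -1.81 ± 0.13 (SE), to 0.286 of the Vehicle level, with an edgeR adjusted p = 5.18e-05. In bulk RNA, fewer cells that express a gene and less of its RNA per cell cannot be told apart. Leaving out each library in turn gave log2 fold changes from -1.97 (without LPS 1) to -1.73 (without LPS 2), and the call held each time.

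The Trem2 promoter window is shown because this gene changed most, beside the windows of Trem1 and Syk, which rose. Each runs from 250 bases before to 50 bases after an annotated start (RefSeq, GRCm38.p6, plus strand). Capitals mark the motifs found by a search on both strands for GAGGAA (the core bound by the myeloid factor PU.1), TGANTCA (AP-1), TGACGTCA (a cAMP response element) and a form of the NF-kB motif.
Trem2, chr17:48346151-48346450: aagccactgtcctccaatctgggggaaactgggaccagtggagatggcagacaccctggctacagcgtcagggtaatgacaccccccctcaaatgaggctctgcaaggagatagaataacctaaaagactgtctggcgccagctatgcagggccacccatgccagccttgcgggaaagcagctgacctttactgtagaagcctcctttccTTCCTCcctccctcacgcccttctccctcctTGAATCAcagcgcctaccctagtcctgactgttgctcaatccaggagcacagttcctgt
Trem1, chr17:48232489-48232788: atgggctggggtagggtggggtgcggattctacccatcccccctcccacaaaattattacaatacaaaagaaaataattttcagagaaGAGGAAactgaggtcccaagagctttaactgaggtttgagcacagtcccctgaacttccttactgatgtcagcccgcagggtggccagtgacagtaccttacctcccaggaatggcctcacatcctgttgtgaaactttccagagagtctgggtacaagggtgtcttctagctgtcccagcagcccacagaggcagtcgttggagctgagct
Syk upstream start, chr13:52583187-52583486: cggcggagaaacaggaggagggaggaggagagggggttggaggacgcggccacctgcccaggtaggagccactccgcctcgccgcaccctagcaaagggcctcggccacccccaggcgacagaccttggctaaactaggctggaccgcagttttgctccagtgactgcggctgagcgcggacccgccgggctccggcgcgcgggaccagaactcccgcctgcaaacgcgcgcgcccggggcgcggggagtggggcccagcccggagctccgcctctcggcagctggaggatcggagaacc
Syk downstream start, chr13:52596632-52596931: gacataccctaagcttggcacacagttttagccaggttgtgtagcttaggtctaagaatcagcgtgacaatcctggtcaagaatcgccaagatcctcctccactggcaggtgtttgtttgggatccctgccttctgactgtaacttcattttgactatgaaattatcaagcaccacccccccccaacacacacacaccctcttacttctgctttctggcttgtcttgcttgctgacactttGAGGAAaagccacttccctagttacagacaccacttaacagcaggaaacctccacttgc

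The Trem2 window held 1 PU.1 core on the opposite strand and 1 AP-1 motif, whose first base lies 9 bases before the annotated start. The Trem1 window and the downstream Syk window held 1 PU.1 core each, and the upstream Syk window held none of these letters. Among members that were not called, the Inpp5d window held 2 PU.1 cores and the Cd33 window 1. The Hcst and Plcg2 windows held none of the motifs, so PU.1 cores were not limited to the genes that changed. Among 32851 promoter windows of this length, 28.3% held the PU.1 core, 7.81% the AP-1 motif, 1.79% the cAMP response element and 0.411% the NF-kB form. The motifs did not overlap in these windows. A match describes the letters and does not show a binding site. Of the 9 members, 7 had a window, and Tyrobp and Trem3 are named only.

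Trem1 (ENSMUSG00000042265) encodes an activating receptor that amplifies inflammatory responses of myeloid cells, also through DAP12. It had 7.05, 7.07 and 9.13 CPM in LPS 1, 2 and 3, against 5.09, 5.05 and 3.40 CPM in Vehicle 1, 2 and 3. The groups did not overlap, but the gap between LPS 1 and Vehicle 1 was about as wide as the spread within a group. The gene rose with a log2 fold change of 0.77 ± 0.22 and an edgeR adjusted p = 0.0387. The call was lost when any of the 6 libraries was left out, with adjusted p from 0.0680 (without LPS 1, log2 fold change 0.82) to 0.115 (without Vehicle 3), and the log2 fold change then ran from 0.60 to 0.87. With total counts alone it was 0.68 (edgeR adjusted p = 0.0645), and across the alternatives run the adjusted p lay between 0.0175 and 0.115.

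Trem3 (ENSMUSG00000041754), the neighbour of Trem1 on chromosome 17, encodes another DAP12-coupled receptor, known from mouse. It had 8.57, 8.09 and 5.66 CPM in LPS 1, 2 and 3, against 5.46, 3.92 and 4.46 CPM in Vehicle 1, 2 and 3. LPS 3 lay just above Vehicle 1. The log2 fold change of 0.68 ± 0.23 did not pass the test (edgeR adjusted p = 0.0666). DESeq2 called it with an adjusted p = 0.0453, as did edgeR without LPS 3 with an adjusted p = 0.0208, and across the alternatives run the adjusted p lay between 0.0208 and 0.198. Trem1 and Trem3 are also known from neutrophils, so neutrophil markers were read beside them. Of 7 such genes Ly6g, Elane and Ngp were at 0 in every library, and only S100a8, which macrophages can also express, was above 0 in all of them. The summed level was 11.7 to 13.6 CPM in LPS libraries and 2.09 to 3.32 CPM in Vehicle libraries, and S100a8 made up nearly all of it, with means of 12.5 and 2.54 CPM in LPS and Vehicle libraries. The part of S100a8 in these results was not tested.

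Cd33 (ENSMUSG00000004609) encodes a receptor of the sialic acid-binding Siglec family. The human protein carries inhibitory motifs (ITIMs) and acts against TREM2, and this is not taken to hold for the mouse protein. The mouse transcript had 138, 116 and 134 CPM in LPS 1, 2 and 3, against 148, 163 and 145 CPM in Vehicle 1, 2 and 3. All LPS libraries were below all Vehicle libraries, but by a small margin. The log2 fold change of -0.23 ± 0.10 did not pass the test (edgeR adjusted p = 0.130).

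Tyrobp (ENSMUSG00000030579), the DAP12 gene, had 157, 119.6 and 116 CPM in LPS 1, 2 and 3, against 175, 209 and 192 CPM in Vehicle 1, 2 and 3. The groups did not overlap, and LPS 1 lay nearest to the Vehicle libraries. The fall to 0.680 of the Vehicle level (log2 -0.56 ± 0.13) had an edgeR adjusted p = 0.0178. The call was lost without LPS 2 (adjusted p = 0.0672), without Vehicle 2 (0.0813) and without Vehicle 3 (0.0581), while without LPS 1 the log2 fold change was -0.72. Across the alternatives run, the adjusted p lay between 0.00167 and 0.0813.

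Hcst (ENSMUSG00000064109) encodes DAP10, the adaptor with the shorter motif shown above. It had 3.98, 4.51 and 2.61 CPM in LPS 1, 2 and 3, against 3.77, 5.83 and 4.60 CPM in Vehicle 1, 2 and 3. The groups overlapped, and the log2 fold change of -0.34 ± 0.28 did not pass the test (edgeR adjusted p = 0.426). Without LPS 3 it was -0.14 and without Vehicle 2 -0.16. Hcst and Tyrobp are neighbours on opposite strands with their 3′ ends facing each other. The library kit is not stated to mark strand, so reads that run past the end of the more abundant Tyrobp cannot be told from Hcst reads. Klrk1, which encodes NKG2D, a receptor that signals through DAP10, was at 0 counts in all 6 libraries.

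Syk (ENSMUSG00000021457), the kinase that docks on the phosphorylated ITAM, was the enzyme that changed. Its level was 309, 322 and 335 CPM in LPS 1, 2 and 3, against 176, 162 and 177 CPM in Vehicle 1, 2 and 3. The groups were far apart relative to their spread. Syk rose 1.87-fold (log2 0.91 ± 0.08), and edgeR gave an adjusted p = 0.000192. Leaving out a library gave log2 values from 0.86 to 0.93 (without LPS 1), and the call held each time.

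Plcg2 (ENSMUSG00000034330), the phospholipase that turns the signal into calcium release and lipid messengers, had 349.9, 355 and 428 CPM in LPS 1, 2 and 3, against 344, 320.4 and 363 CPM in Vehicle 1, 2 and 3. LPS 3 stood above the other 5 libraries, which overlapped. The log2 fold change was 0.14 ± 0.10 (edgeR adjusted p = 0.372), and 0.04 without LPS 3. Inpp5d (ENSMUSG00000026288), the SHIP1 phosphatase that removes a phosphate from the lipid product of phosphatidylinositol 3-kinase, had 146, 150.4 and 159 CPM in LPS 1, 2 and 3, against 137, 137 and 162 CPM in Vehicle 1, 2 and 3. Its groups overlapped, with Vehicle 3 the highest library. The log2 fold change was 0.06 ± 0.10 (edgeR adjusted p = 0.693), and -0.03 with scaling by total counts alone.

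**Figure D2:**
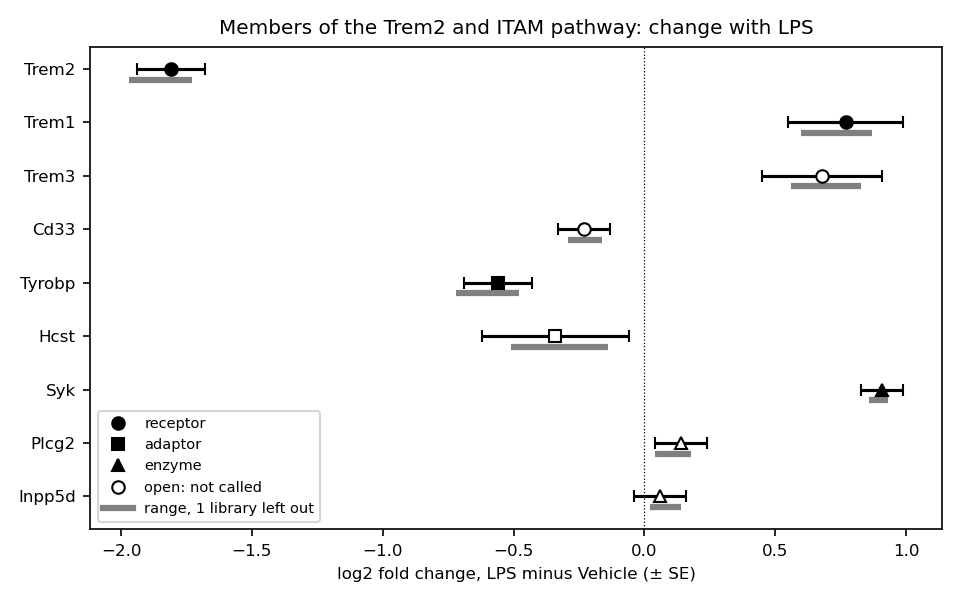
Log2 fold change of each gene, LPS minus Vehicle (horizontal axis), with its SE as whiskers, shapes for the role, filled symbols for called genes and grey bars for the range when 1 library is left out. Trem2 at -1.81 and Syk at 0.91 lie farthest from 0 on either side, and the grey bars of Plcg2 and Inpp5d come close to 0.

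Levels were set against each other per transcript length, as TPM (counts divided by length and scaled to a common sum) over the longest principal transcript, without TMM scaling. With LPS the order of mean TPM was Tyrobp, Plcg2, Syk, Trem2, Inpp5d, Cd33, Hcst, Trem3 and Trem1, and in Vehicle it was Tyrobp, Trem2, Plcg2, Syk, Inpp5d, Cd33, Hcst, Trem3 and Trem1. Trem2 averaged 87.2 ± 14.4 TPM in LPS libraries and 344 ± 20.7 TPM in Vehicle libraries (SD, n = 3 each). It stood above 88.1% of tested genes in mean TPM with LPS and above 97.4% in Vehicle. Tyrobp averaged 433 ± 68.0 TPM in LPS libraries and 717 ± 69.0 TPM in Vehicle libraries (SD, n = 3 each), above 98.0% and 98.8% of tested genes in LPS and Vehicle. Syk averaged 113 ± 11.4 TPM in LPS libraries and 67.5 ± 3.02 TPM in Vehicle libraries (SD, n = 3 each). Trem2 was thus below Syk and Plcg2 in all LPS libraries and above both in all Vehicle libraries.

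The lowest levels were those of Trem1, with 4.88 ± 1.09 TPM in LPS libraries and 3.18 ± 0.68 TPM in Vehicle libraries, and of Trem3, with 13.9 ± 2.22 and 9.76 ± 1.58 TPM in LPS and Vehicle libraries (SD, n = 3 each). The Trem3 groups, apart in CPM, overlapped in TPM, with 11.46 TPM in LPS 3 and 11.49 TPM in Vehicle 1. Neighbours in the order whose libraries overlapped were Hcst and Trem3 with LPS. In Vehicle they were Syk and Inpp5d, and Inpp5d and Cd33. Cd33 has principal transcripts of 5728 and 1791 bases. With the shortest principal transcript of each gene its mean was 123 TPM in LPS and 162 TPM in Vehicle. This placed Cd33 above Syk (107 and 63.9 TPM) in both groups. It was then also above Trem2 in LPS (79.2 TPM) but not in Vehicle (311 TPM), and above Plcg2 in Vehicle (151.9 TPM) but not in LPS (150.2 TPM).

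**Figure D3:**
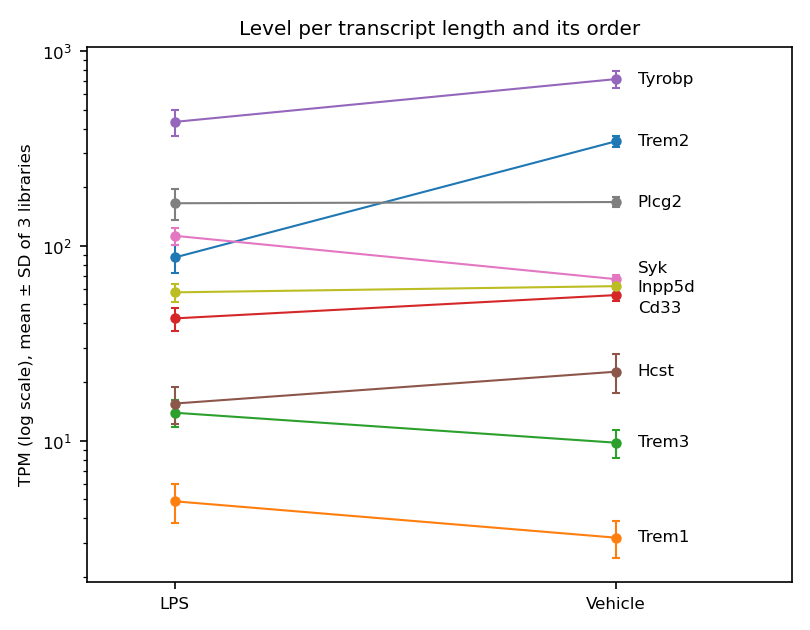
Mean TPM over the longest principal transcript with SD of 3 libraries on a log axis, LPS left and Vehicle right, with a line per gene. The Trem2 line, at 87.2 TPM in LPS and 344 TPM in Vehicle, crosses those of Plcg2 and Syk, and no other lines cross.

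Ratios of a pair of members within a library hardly depend on how libraries are scaled. They were computed for 11 pairs as the difference of log2(CPM + 1), and their size is no ratio of molecules since CPM is not per length. Trem2 against Tyrobp was -1.35, -1.38 and -1.31 in LPS 1, 2 and 3, against 0.00, -0.15 and -0.18 in Vehicle 1, 2 and 3. The receptor transcript thus fell more than the adaptor transcript, by 1.24 on the log2 scale, and the spread within a group was at most 0.09 (SD, n = 3 each). The ratio of Trem1 to Trem2 averaged -2.56 ± 0.37 in LPS and -5.03 ± 0.22 in Vehicle (SD, n = 3 each), a difference of 2.47.

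Among the enzymes, Syk against Tyrobp averaged 1.31 ± 0.29 in LPS and -0.16 ± 0.19 in Vehicle (SD, n = 3 each). Plcg2 against Syk averaged 0.22 ± 0.11 in LPS and 0.99 ± 0.04 in Vehicle, and Inpp5d against Syk -1.08 ± 0.01 in LPS and -0.24 ± 0.12 in Vehicle (SD, n = 3 each). For 10 of the 11 pairs the groups did not overlap, and the exact two-sided permutation test gave p = 0.10 each (0.11 adjusted over the 11 pairs), the smallest that 3 libraries against 3 allow. Hcst against Tyrobp overlapped (difference 0.27, exact permutation p = 0.30, also 0.30 adjusted). None of the 11 pairs can therefore pass a threshold of 0.05 in this design.

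**Figure D4:**
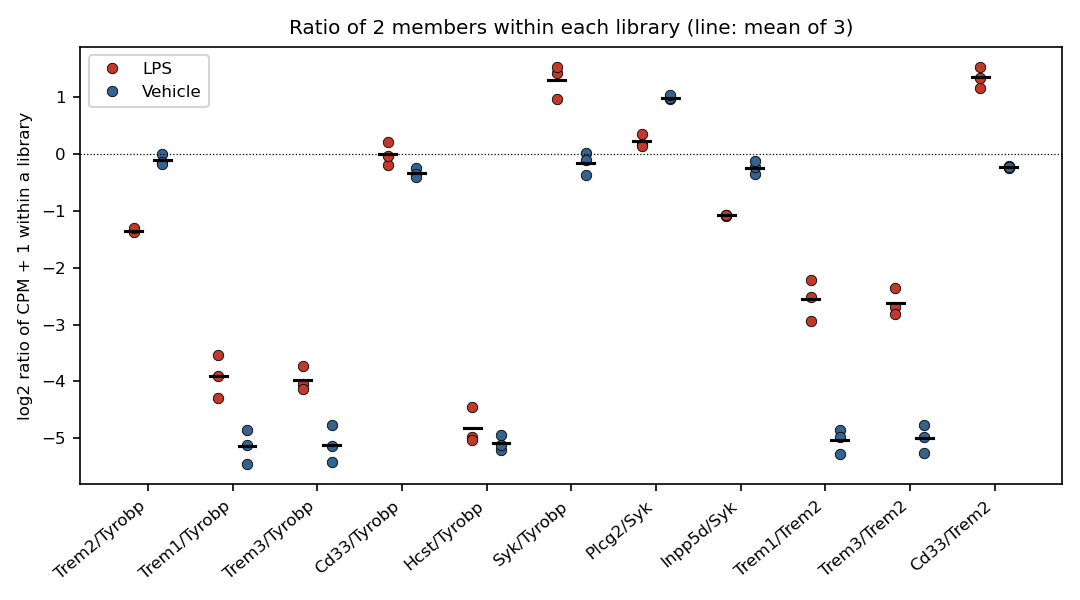
Log2 ratio of CPM + 1 of each pair of genes within a library (vertical axis), LPS points left and Vehicle points right of each tick, with a line for the mean of 3 libraries. Trem2 against Tyrobp lies between -1.38 and -1.31 in LPS and between -0.18 and 0.00 in Vehicle, and Hcst against Tyrobp is the pair whose groups overlap.

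Among 9793 genes with a mean of at least 5 CPM, the pattern over the 6 libraries was nearest to that of Trem2 in Cytip, Rgs2, Lpl and Slc8a1. The measure was the root-mean-square difference of log2 CPM centred on each gene, which was 0.08 for Cytip and 0.13 for Slc8a1. Rgs2, a regulator of G protein signalling, averaged 40.9 ± 4.27 CPM in LPS and 130.1 ± 4.74 CPM in Vehicle, and Slc8a1, a sodium-calcium exchanger gene, 2.70 ± 0.45 CPM in LPS and 9.14 ± 0.92 CPM in Vehicle (SD, n = 3 each). They were picked for this likeness, so no test applies.

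Further genes of the route were read in 6 lists, of which 91 of 100 genes were tested, with 26 called higher and 18 lower, against 12.7% and 10.9% of all tested genes. One list holds receptors that pair with ITAM adaptors or carry an ITAM, and also Fcer1g, which encodes an ITAM adaptor. Of its 18 tested genes 5 rose and 5 fell, and the list's median log2 fold change was 0.08. Fcer1g averaged 272 CPM in LPS and 230 CPM in Vehicle and was not called (log2 0.24 ± 0.16). The DAP12-coupled receptor gene Pilrb1 averaged 16.8 ± 1.25 CPM in LPS and 3.49 ± 0.47 CPM in Vehicle (SD, n = 3 each), a log2 fold change of 2.26 ± 0.17. Pilrb2 and Clec4n, the gene of Dectin-2, rose with 1.65 ± 0.25 and 1.48 ± 0.29, and Sirpb1b fell with -1.89 ± 0.37. The other calls, named after their values were seen, were rises of Clec4e and Cd300ld and falls of Sirpb1c, Cd300lb, Nfam1 and Clec5a. Without LPS 1 or Vehicle 2 the falls numbered 3, and without LPS 2 or Vehicle 1 they numbered 2. Reads of the Pilrb and Sirpb1 genes can be shared with close copies, so their values are uncertain.

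Of 15 tested inhibitory receptors with ITIMs, 5 rose and 5 fell, with a median of 0.44. Pilra, the inhibitory partner of Pilrb1, averaged 66.8 ± 14.9 CPM in LPS and 16.8 ± 3.33 CPM in Vehicle (SD, n = 3 each), a log2 fold change of 1.99 ± 0.20. Siglece, a Siglec like Cd33, rose with 2.43 ± 0.39, and Clec4a2 fell with -2.96 ± 0.41. Siglece had 147, 133 and 122 counts in LPS 1, 2 and 3, against 31, 36 and 10 counts in Vehicle 1, 2 and 3. Clec4a2 had 16, 16 and 8 counts in LPS 1, 2 and 3, against 139, 94 and 92 counts in Vehicle 1, 2 and 3. With counts this low in a group, the size of both changes is uncertain. Treml1, a relative of the TREM receptors, had 0, 12 and 0 counts in LPS 1, 2 and 3, against 59, 141 and 40 counts in Vehicle 1, 2 and 3, and fell with -4.24 ± 1.03. The other calls, named after their values were seen, were rises of Lilrb4a, Cd300lf and Fcgr2b and falls of Clec12a, Lair1 and Cd300a. Lilrb4a has a near-identical copy, so its value is uncertain.

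The Src family kinases phosphorylate the ITAM. Of 7 tested kinases of the Src and Syk list, which holds their regulator Csk, 2 rose and 5 did not pass the test, with a median of 0.24. Src averaged 64.4 ± 11.1 CPM in LPS and 18.4 ± 1.61 CPM in Vehicle (SD, n = 3 each), a log2 fold change of 1.80 ± 0.15. Lck, at 8.17 and 4.64 CPM in LPS and Vehicle, rose with 0.81 ± 0.24. A single kinase gene rose without any one library other than Vehicle 3, and with total counts alone.

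Of 28 adaptors and effectors downstream of ITAMs 9 rose and 3 fell, with a median of 0.26. Lat and Lcp2, which encode the scaffold proteins LAT and SLP-76, rose with log2 fold changes of 2.15 ± 0.13 and 1.43 ± 0.08. Lcp2 averaged 411 ± 11.4 CPM in LPS and 152 ± 8.85 CPM in Vehicle (SD, n = 3 each). The adaptor gene Gab2 rose with 0.91 ± 0.09, and the kinase gene Akt1 fell with -0.49 ± 0.08. The other falls, named after their values were seen, were those of Pik3r1 and Sh3bp2. A single gene fell without LPS 1, LPS 2 or any Vehicle library, and 5 fell with total counts, upper quartile scaling or DESeq2.

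Of 13 genes in the phosphatase and ubiquitin ligase list 4 rose and 1 fell, with a median of 0.05. The list also holds the adaptor genes Dok1, Dok2, Dok3 and Pag1, and most of its genes are known to restrain ITAM signals. Dok3, an inhibitory adaptor, rose with 0.89 ± 0.12, the ligase gene Cblb with 0.62 ± 0.14 and the phosphatase gene Ptpn22 with 0.59 ± 0.15. Ptpn6, the SHP-1 gene, rose with 0.30 ± 0.08 and is named after its value was seen. The rises numbered 2 without LPS 1 or Vehicle 3 and 1 without Vehicle 2. The number of falls was 0 without LPS 1, LPS 2 or Vehicle 2 and 2 without Vehicle 1.

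Of 10 tested genes for ligands and cleaving proteases of TREM receptors 1 rose and 4 fell, with a median of 0.00. Apoe, a lipoprotein ligand of Trem2, averaged 346 ± 17.5 CPM in LPS and 526 ± 48.8 CPM in Vehicle (SD, n = 3 each), a log2 fold change of -0.61 ± 0.09. Clu, another lipoprotein ligand, rose with 0.97 ± 0.09. The protease gene Adam10, whose product sheds the Trem2 ectodomain, fell with -0.83 ± 0.11, Hmgb1 with -1.02 ± 0.21, and Adam17, named after its value was seen, with -0.40 ± 0.12. The gamma-secretase genes Psen2, Ncstn, Aph1a and Psenen did not pass the test. Without LPS 2 the falls numbered 2, and without LPS 3 the rises numbered 2.

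**Figure D5:**
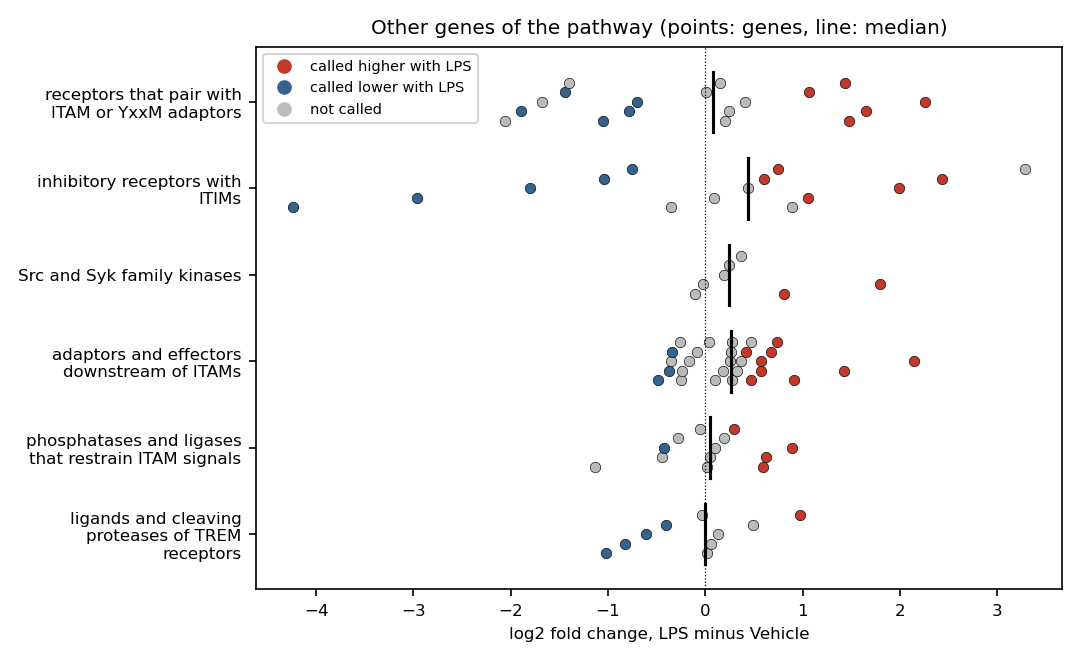
Log2 fold change, LPS minus Vehicle (horizontal axis), of each tested gene in the 6 lists, red where called higher, blue where called lower and grey where not called, with a line at the median of each list. The medians lie between 0.00 and 0.44, and the inhibitory receptors spread from -4.24 (Treml1) to 3.29 (Cd22, not called). Both ends are genes of low counts, Cd22 with 39, 24 and 16 in LPS 1, 2 and 3 and 0, 0 and 8 in Vehicle 1, 2 and 3.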

How the data were processed

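Poly(A)-selected RNA was sequenced on an Illumina NovaSeq instrument, per the labels' protocols. The submitters' processing notes name HISAT2, Bowtie2 2.2.8, DESeq2 and StringTie 1.3.1 without saying which did what. No source used here names the build or gene models. The authors deposited 1 table with the estimated counts of each gene, all whole numbers, and no header says how they were made. A search over a limited range of spacings placed the strongest spacing of small values at 3.46 to 3.71 counts depending on the library. The piling up was weak, at 0.155 to 0.191 on a scale where 1 is full spacing. Whether 1 count is 1 read is therefore not known. Each of the 6 sample columns was mapped to its sample by name.

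Symbols (55141 of 55401 genes) and transcript lengths came from GENCODE M21, and older names from RefSeq. Genes were tested over the whole table with edgeR 4.0.16 (R 4.3.3): filterByExpr (minimum count 10, minimum total 15), TMM scaling and the robust quasi-likelihood F-test, two-sided. The SE is the log2 fold change over the square root of F. DESeq2 1.42.0 and limma 3.58.1 were alternatives. The procedure was also run on simulated counts. These had the same variability setting for all genes and no piling of small values, so that run does not show how the procedure performs on this table. Ratios used a pseudocount of 1 CPM and exact permutation tests. Members and lists were chosen with earlier results of these data known. In each list up to 4 called genes with the largest changes are named, at least 1 each way. Some genes of these lists are not reported here.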

Additional observations from a re-analysis of the deposited data

How the results depend on the processing

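Values recomputed under the alternatives were taken as kept if their direction and their side of the threshold held. Counts were taken as kept if they stayed within 1.5 times. Ratios were judged by direction alone, since none can pass 0.05 in this design. By these rules 517 values were kept, 48 counts moved further, 11 values lost a call, 2 gained one and 1 reversed. Trem2 and Syk kept their calls under every scaling, filter, test and left-out library run. The cause of the shifts that follow was not tested. Trem1 was not called with total counts alone (0.68, adjusted p = 0.0645) or with a block for the replicate number (0.77, adjusted p = 0.0685), and Trem3 was called by DESeq2 (0.68, adjusted p = 0.0453). Inpp5d turned to -0.03 with total counts. Receptors called higher numbered 0 with total counts or the block and 2 with DESeq2. The Src and Syk list had 1 rise with total counts, the block or edgeR's test as before version 4, an alternative added after seeing the data. Falls among the ITAM adaptors and effectors numbered 5 with upper quartile scaling, total counts or DESeq2. In the phosphatase and ligase list falls numbered 2 with DESeq2 or the block, and among the ligands and proteases 2 with the block. The replicate numbers were not taken as pairs, since deviations of same-numbered libraries correlated by 0.0453 to 0.0734 across genes, though each library correlated best with its own number. All 11 ratios kept their direction under each pseudocount, the block and each left-out library.

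With 1 library left out, log2 fold changes ran from 0.60 to 0.87 for Trem1, 0.56 to 0.83 for Trem3 and -0.72 to -0.48 for Tyrobp. Over all genes 2344 to 4535 were called, 1291 to 2450 higher and 1053 to 2085 lower, against 3864, 2082 and 1782 with all libraries, and the lowest numbers came without Vehicle 2. Receptors called higher numbered 0 to 1 and adaptors called lower 0 to 1. Falls ran from 2 to 4 in the ITAM receptor list and 1 to 4 among effectors. They ran from 0 to 2 in the phosphatase and ligase list and 2 to 4 among ligands and proteases. Rises ran from 1 to 2 among Src and Syk kinases, 1 to 4 in the phosphatase and ligase list and 1 to 2 among ligands and proteases. A design of 3 against 3 limits the ratios to an exact p of at least 0.10.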
